A study of Mus musculus with 6 samples.

Results

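The membrane adenylyl cyclases of mouse are encoded by 9 genes, *Adcy1* to *Adcy9*. They were taken here as a family, by gene name in the deposited transcript assembly, and each of the 9 names lay on a single locus that carried no other name. They make up 9 of the 34632 loci measured, and all 9 passed the filter on low counts that left 21854 loci for testing. Adenylyl cyclases convert ATP into the second messenger cyclic AMP, which activates protein kinase A, opens cyclic nucleotide-gated channels and engages exchange factors for small G proteins. All membrane cyclases are activated by the stimulatory G protein subunit Gαs, and they differ in how they respond to calcium, to Gβγ and to inhibitory G proteins. In neurons, the calcium-sensitive members couple electrical activity to cyclic AMP and are known for their part in synaptic plasticity.

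RNA was sequenced from whole brainstem of mice at postnatal day 21 (P21), in 6 libraries, with 3 labelled *Hoxa5* control and 3 *Hoxa5* cKO. The comparison asks which transcripts differ after *Hoxa5*, a gene for a homeodomain transcription factor expressed in the pons and medulla, is inactivated once the animal is born. Both groups were homozygous for the floxed *Hoxa5* allele (*Hoxa5* flox/flox) and received tamoxifen on postnatal days 1 to 4. The cKO animals carried in addition 1 copy of the *CMV-CreERT2* transgene (*CMV-CreERT2*+/-), and the controls were littermates without it (*CMV-CreERT2*-/-). The CMV promoter that drives the recombinase is not specific to a cell type or to the brainstem, recombination was not measured in these libraries, and the mice were on a mixed background, mainly 129/Sv. Each library came from RNA pooled from 3 brainstems. The p-values therefore measure the spread between 3 pools per genotype, not between animals.

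The libraries held 12034613 to 13202707 fragments. The *Hoxa5* locus, on which the assembly also placed *Hoxa6* and *2700086A05Rik*, had 202, 337 and 77 fragments in control replicates 1 to 3 and 279, 57 and 63 in cKO replicates 1 to 3. One library labelled cKO thus had more fragments at this locus than 2 labelled control, and the fitted log2 fold change was -0.62 (SE 0.48, edgeR adjusted p = 0.893). Without cKO replicate 1 it was -1.82 (edgeR adjusted p = 0.0318). With any other single library left out it was not called (edgeR adjusted p of at least 0.621). It then lay between -1.04, without control replicate 3, and -0.05, without control replicate 2. The genotypes are named below by their labels only. All 8 markers of brainstem neurons, such as *Tph2* and *Slc6a5*, passed the filter, with a summed level of 554 to 589 CPM (fragments scaled to a common library size) in control libraries and 578 to 624 in cKO libraries, and 3 of 5 forebrain markers passed it, with sums for the 5 of 6.80 to 6.96 and 5.68 to 7.90 CPM. Among these, *Neurod6* had 32 to 44 fragments per library, *Drd1* 17 to 30, *Adora2a* 14 to 28 and *Emx1* at most 3. Markers of cerebellar neurons were also present and stood apart by genotype, with control replicate 1 above all other libraries. Their values are given with those of *Adcy1*.

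*Adcy1* lies on the forward strand at chr11:7063489-7178961 (mm10) and has 20 exons. The 250 bases upstream of its RefSeq start, chr11:7063183-7063432 on the forward strand (GRCm38.p6), are shown because it was the only cyclase gene called between the genotypes. Capitals mark the GC box core CCGCCC on either strand, a motif chosen after this window had been read.

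Adcy1 upstream window: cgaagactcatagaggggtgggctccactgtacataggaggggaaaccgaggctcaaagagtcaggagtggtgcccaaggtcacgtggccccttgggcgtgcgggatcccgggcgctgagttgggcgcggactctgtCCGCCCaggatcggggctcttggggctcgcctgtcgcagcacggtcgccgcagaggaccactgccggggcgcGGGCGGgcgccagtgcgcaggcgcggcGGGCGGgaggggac

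This window held 3 copies of CCGCCC, 26 CpG dinucleotides and 71.2% G or C. Of the 32851 windows of the same length in the RefSeq table, 32.7% held at least 1 CCGCCC, and the medians over all windows were 6 CpG and 52.4% G or C. The letters TAAT, the core bound by many homeodomain proteins, occurred in 54.9% of all windows and not in this one, and the letters TGACG, part of the cyclic AMP response element, occurred in 17.8% and not in this one. Both strands were searched and the motifs do not overlap one another. The table gave 10 windows for 7 of the 9 members, and *Adcy6* and *Adcy8* had none. TAAT was found in a window of *Adcy4* and in 1 of *Adcy7*, and TGACG in a window of *Adcy9* and in 1 of *Adcy7*. *Adcy5* and *Adcy9* had 4 copies of CCGCCC each.

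The study also designed a quantitative PCR assay for *Adcy1*, whose primers place the measured gene on its coding exons. In the GENCODE transcript (GRCm38), the forward primer lies in exon 5 of 20 at chr11:7130279-7130298, and the reverse primer spans the junction of exons 5 and 6, with its outer ends at positions 7130395 and 7137283.

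Adcy1 forward primer: aaccactgtcgccgaatcaa

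Adcy1 reverse primer: cagccacggatgtgatggta

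Per transcript length, in FPKM (fragments scaled to transcript length and library size), the family spanned from 0.807 to 43.2 over genes and libraries. The order by level was *Adcy1*, *Adcy5*, *Adcy2*, *Adcy9*, *Adcy8*, *Adcy3*, *Adcy6*, *Adcy7* and *Adcy4*. Neighbours were compared within each of the 6 libraries on log2(FPKM + 1) by a two-sided exact sign-flip permutation test. *Adcy1* and *Adcy5* were not separated (p = 0.5 by the exact test), since *Adcy1* was the higher of the pair in 3 of 6 libraries. *Adcy3* and *Adcy6* were not separated either (p = 0.1875 by the exact test, 0.214 after Benjamini-Hochberg adjustment over the 8 pairs). The other 6 pairs kept their order in 6 of 6 libraries (exact p at the smallest value that 6 libraries allow, 0.0417 after adjustment). The smallest of these steps was *Adcy9* over *Adcy8*, by 0.05 ± 0.04 on the log2 scale (SD, n = 6), where the ranges of the pair overlapped. *Adcy4* stood lowest, 2.06 ± 0.13 below *Adcy7* on that scale (SD, n = 6).

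**Figure D1:**
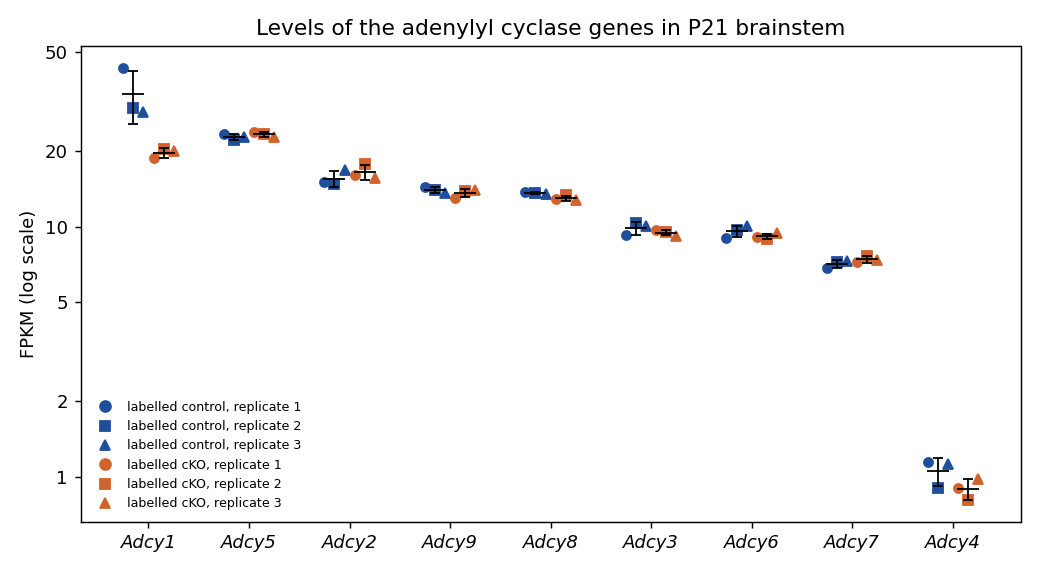
Level of each membrane adenylyl cyclase gene in FPKM (log axis), 1 point per library, with blue for libraries labelled control and orange for those labelled cKO, the bars giving mean and SD per genotype (n = 3). *Adcy1* is the gene whose colours part widely, from 28.8 to 43.2 in control and 18.7 to 20.5 in cKO, while *Adcy4* sits near 1 in all libraries.

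The position at the top of the order depended on the genotype. *Adcy1* was above *Adcy5* in 3 of 3 control libraries, by a mean of 0.53 on log2(FPKM + 1), and *Adcy5* was above *Adcy1* in 3 of 3 cKO libraries, by 0.23. The order of the mean levels was otherwise the same in both genotypes.

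*Adcy1*, *Adcy3* and *Adcy8* form the group that calcium and calmodulin can stimulate. *Adcy1* encodes the neural cyclase most closely tied to calcium entry and is abundant in cerebellar granule neurons, hippocampus and cortex. It had 6656, 4565 and 4822 fragments in control replicates 1 to 3, and 2815, 3387 and 3190 in cKO replicates 1 to 3. In FPKM these were 43.2, 29.7 and 28.8 against 18.7, 20.5 and 20.05. Every library labelled cKO was below every library labelled control, and control replicate 1 was far above the other 2 controls. *Adcy1* fell by 0.78 on the log2 scale (SE 0.11, 95% interval -1.002 to -0.555, edgeR adjusted p = 0.00140), which puts the cKO level at 0.583 of the control level. It ranked 18 by p among all loci tested, and 37 by size of fall among the 110 loci called lower. Without control replicate 1 the log2 fold change was -0.56 (edgeR adjusted p = 3.85e-05), and with any other library left out it lay between -0.88 and -0.74. The call was lost when FPKM were tested with limma in place of fragments (log2 fold change -0.73 on log2(FPKM + 1), adjusted p = 0.422), a test that called 0 of all loci.

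*Adcy8*, the other cyclase that calmodulin activates directly, had 13.8, 13.7 and 13.5 FPKM in control and 12.9, 13.3 and 12.7 in cKO. The 3 cKO values were below the 3 control values, but by little. The log2 fold change was -0.07 (95% interval -0.18 to 0.05, edgeR adjusted p = 0.899). *Adcy3*, best known as the cyclase of olfactory signal transduction and of neuronal cilia, had 9.24, 10.35 and 10.02 FPKM in control and 9.68, 9.51 and 9.21 in cKO. Its groups overlapped, with a log2 fold change of -0.05 (95% interval -0.18 to 0.09, edgeR adjusted p = 0.946). The locus shares 1098 exonic bases with *Cenpo* on the opposite strand, which had 165 to 198 fragments, so a part of the *Adcy3* fragments could belong to that gene.

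*Adcy2*, *Adcy4* and *Adcy7* encode the cyclases that Gβγ can stimulate once Gαs is active. *Adcy2*, a neural member, had 15.04, 14.7 and 16.8 FPKM in control and 16.1, 17.8 and 15.6 in cKO. The groups overlapped and the log2 fold change was 0.09 (95% interval -0.05 to 0.23, edgeR adjusted p = 0.870). *Adcy7*, known from platelets and immune cells, had 6.83, 7.20 and 7.30 FPKM in control and 7.21, 7.62 and 7.35 in cKO, again with overlap. Its log2 fold change was 0.06 (95% interval -0.10 to 0.21, edgeR adjusted p = 0.939), and it shares 112 exonic bases with *Brd7* on the opposite strand. *Adcy4* was the scarcest member, with 46, 36 and 49 fragments in control and 35, 35 and 41 in cKO. At this depth its log2 fold change of -0.24 had a wide 95% interval, -0.65 to 0.18 (edgeR adjusted p = 0.900).

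*Adcy5* and *Adcy6* encode the pair of cyclases that calcium and Gαi inhibit. *Adcy5*, the main cyclase of striatal neurons, had 23.5, 22.3 and 22.7 FPKM in control and 24.0, 23.3 and 22.8 in cKO. The groups overlapped in FPKM, but the 3 cKO libraries lay above the 3 control libraries in CPM, where the lowest cKO value was 137.1 and the highest control value 136.6. The log2 fold change was 0.05 (95% interval -0.05 to 0.14, edgeR adjusted p = 0.912). *Adcy6*, broadly expressed, had 9.04, 9.65 and 10.04 FPKM in control and 9.08, 8.95 and 9.41 in cKO. Its groups overlapped, with a log2 fold change of -0.06 (95% interval -0.19 to 0.07, edgeR adjusted p = 0.921). *Adcy9*, the member that responds least to forskolin, had 14.4, 14.0 and 13.7 FPKM in control and 13.1, 13.9 and 14.0 in cKO, with a log2 fold change of -0.03 (95% interval -0.14 to 0.08, edgeR adjusted p = 0.951).

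**Figure D2:**
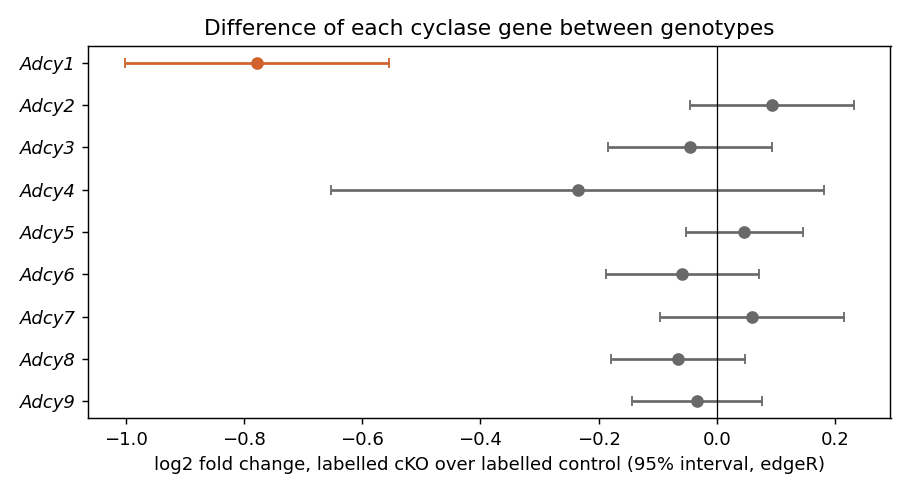
Log2 fold change of each cyclase gene, libraries labelled cKO over libraries labelled control (n = 3 each), with the 95% interval from edgeR, and orange for a gene called at an adjusted p under 0.05. *Adcy1* lies at -0.78, and the intervals of the other 8 genes include 0.

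In all, 1 of the 9 members was called lower and 0 were called higher, where 0.503% of all loci tested were called lower and 0.0275% higher. Of the other 8, 0 had an unadjusted p under 0.05 by edgeR (lowest 0.174), and DESeq2 also called *Adcy1* alone. The 95% intervals of the 7 members other than *Adcy1* and *Adcy4* lay within -0.19 to 0.23 on the log2 scale, and the interval of *Adcy1* lies wholly below that range. The wide interval of *Adcy4*, -0.65 to 0.18, overlapped that of *Adcy1*. In CPM the groups did not overlap for 3 of the 9, with *Adcy1* and *Adcy8* lower and *Adcy5* higher in cKO, while 6.54% of all loci tested were so arranged downward and 5.61% upward. The median log2 fold change of the members was -0.05, and that of all loci tested was 0.00341.

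The summed FPKM of the family was 136.1, 122.4 and 124.0 in control and 111.6, 115.8 and 112.2 in cKO. All 3 cKO sums were below all 3 control sums (127.5 ± 7.51 against 113.2 ± 2.28, SD, n = 3, two-sided exact permutation p = 0.1, the smallest that 3 against 3 allow). Without *Adcy1* the sums were 93.6 ± 1.35 and 93.4 ± 1.65 (SD, n = 3, exact permutation p = 0.9).

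*Adcy1* accounted for 31.8, 24.2 and 23.2% of the summed FPKM in control and 16.8, 17.7 and 17.9% in cKO. Its share was 8.96 percentage points lower in cKO (exact permutation p = 0.1, 0.15 after Benjamini-Hochberg adjustment over 9 members, n = 3 per genotype). The share of *Adcy5* was 17.9 ± 0.592% in control and 20.7 ± 0.713% in cKO, and that of *Adcy2* 12.2 ± 1.25% and 14.6 ± 0.734% (SD, n = 3). Since the shares of a library sum to a constant, those of the other members are not independent of the lower share of *Adcy1*.

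**Figure D3:**
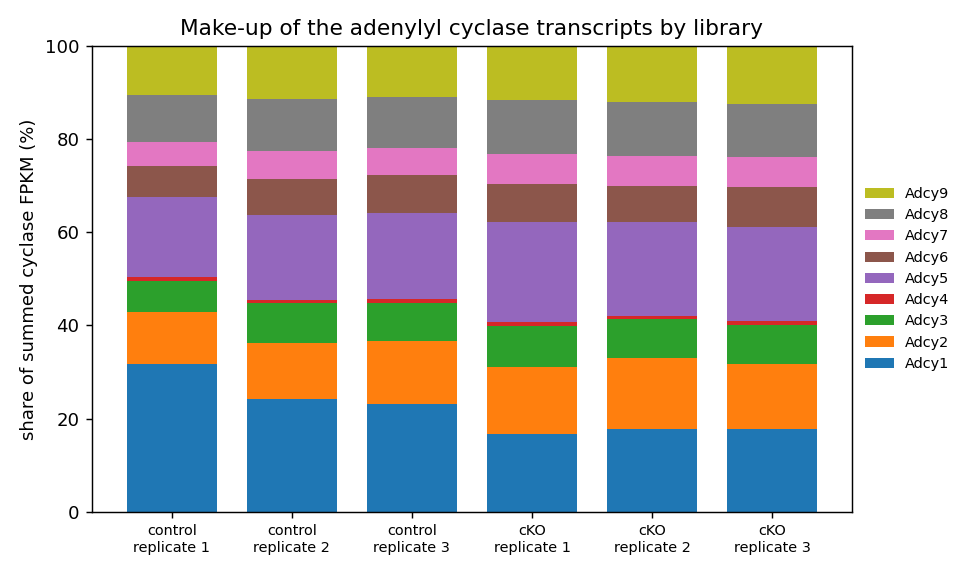
Share of each cyclase gene in the summed FPKM of the 9 genes (percent), 1 bar per library, control on the left and cKO on the right. The lowest segment, *Adcy1*, takes 23.2 to 31.8% in control and 16.8 to 17.9% in cKO.

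Markers of cerebellar neurons moved with *Adcy1*. The marker lists were chosen with earlier results of these data known, so the counts of calls below are descriptions and not a test. Of all loci tested, 0.503% were called lower and 0.0275% higher. Of 6 granule neuron markers, 5 were called lower in cKO (*Gabra6*, *Cbln3*, *Neurod1*, *Fat2* and *Gabrd*), with a summed level of 287 to 551 CPM in control and 106 to 137 CPM in cKO. Of 7 Purkinje cell markers, 5 were called lower (*Pcp2*, *Car8*, *Ppp1r17*, *Slc1a6* and *Calb1*), with sums of 171 to 273 and 97.3 to 109 CPM. The granule neuron marker *Barhl1* and the Purkinje cell markers *Casq2* and *Skor2* were tested and not called. Some of these markers, such as *Gabra6* and *Calb1*, are also expressed in brainstem nuclei, so their levels need not come from cerebellar cells alone. All 3 Bergmann glia markers were called lower, with sums of 311 to 357 and 249 to 278 CPM. None of these 16 markers was at 0 in any library. No marker of astrocytes, oligodendrocytes, their precursors, microglia, endothelium, choroid plexus or brainstem neurons was called, and 1 of 5 meningeal markers, *Mgp*, was called higher. The calls of *Slc1a6*, *Hopx*, *Slc1a3* and *Mgp* were lost without control replicate 1 (edgeR adjusted p = 0.176, 0.328, 0.131 and 0.229) and without at least 1 other library, while those of the 5 granule markers held with each library left out.

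The 6 libraries had the same order for *Adcy1* and for the mean of the granule markers. On the log2 CPM scale, *Adcy1* was at 9.09, 8.54 and 8.51 in control replicates 1 to 3, where the mean of the granule markers was 5.55, 5.02 and 4.81. In cKO replicates 1 to 3, *Adcy1* was at 7.88, 8.02 and 7.98, and the granule mean at 3.48, 3.83 and 3.53. Control replicate 1 was highest for both, and every cKO library was below every control library for both. The granule mean was 1.52 lower in cKO, a larger difference than that of *Adcy1*. The level of *Adcy1* relative to that mean was 3.59 ± 0.10 in control and 4.35 ± 0.13 in cKO (SD, n = 3, exact permutation p = 0.1), and relative to the Purkinje mean 4.91 ± 0.02 and 5.11 ± 0.14 (exact permutation p = 0.1).

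**Figure D4:**
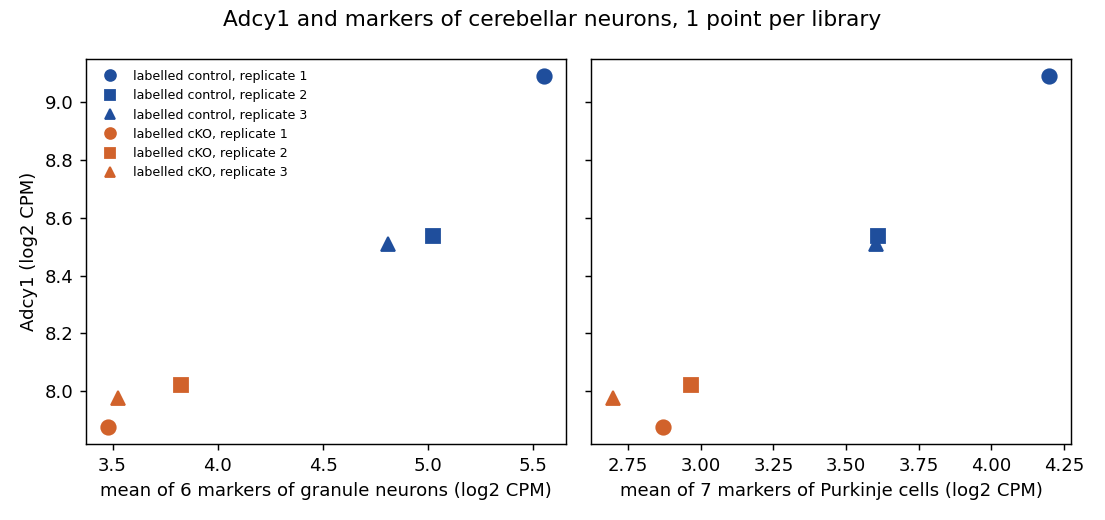
Level of *Adcy1* (log2 CPM) against the mean level of 6 granule neuron markers (left) and of 7 Purkinje cell markers (right), 1 point per library, with blue for control and orange for cKO. Control replicate 1 is at the upper right of both panels, and the 3 cKO libraries are at the lower left.

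With the granule mean of each library as a covariate, the fitted difference of *Adcy1* between the genotypes was 0.37 (SE 0.19, edgeR adjusted p = 1.00), and 1 locus in all was called. Because the granule mean itself did not overlap between the genotypes, the label and the granule markers cannot be told apart in this fit. In bulk tissue, fewer cells of a type and less RNA per cell cannot be told apart either.

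The 5 singly named loci whose log2 CPM was most like that of *Adcy1* over the 6 libraries were *Sbk1* (Pearson r = 0.998), *Ubtf* (0.997), *1520402A15Rik* (0.996), *Exph5* (0.996) and *Homer3* (0.995). These correlations are descriptions over 6 libraries that share the genotype difference, and 136 of the 14877 loci compared had an r over 0.95. *Homer3*, a postsynaptic scaffold protein gene, had 279, 194 and 196 fragments in control and 103, 123 and 124 in cKO (log2 fold change -0.94, edgeR adjusted p = 0.00405). *Exph5* differed more (-1.57, edgeR adjusted p = 0.00309) and *Sbk1* less (-0.48, edgeR adjusted p = 0.00811). *Ubtf*, a factor for ribosomal RNA transcription, followed the same pattern at a small size (log2 fold change -0.12) and was not called (edgeR adjusted p = 0.654).

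The rest of the cyclic AMP pathway was read from 11 lists of 142 genes, 130 of which were tested. Called lower were 2 of them (1.54%, against 0.503% of all loci tested), and 0 were called higher (0.0275% of all loci). At an unadjusted p under 0.05 by edgeR there were 12 lower and 4 higher genes of the 130. Of all 21854 loci tested, 1516 were under that threshold in either direction. The list medians lay between -0.06 and 0.06 on the log2 scale.

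Both called genes encode receptors. *Grm4*, a glutamate receptor that inhibits cyclases through Gαi, had 878, 751 and 692 fragments in control and 350, 585 and 503 in cKO. All cKO libraries were below all control libraries, with a log2 fold change of -0.70 (SE 0.12, edgeR adjusted p = 0.0109). The call was lost without control replicate 1 (edgeR adjusted p = 0.0804). *Crhr1*, the receptor for corticotropin-releasing hormone, which stimulates cyclases through Gαs, had 368, 314 and 314 fragments in control and 221, 273 and 224 in cKO. Its log2 fold change was -0.47 (SE 0.10, edgeR adjusted p = 0.0392). That call was lost when control replicate 1, control replicate 2, cKO replicate 1 or cKO replicate 3 was left out, and the adjusted p reached 0.350 without control replicate 1. Like that of *Adcy1*, neither call held with limma on FPKM or with the granule mean as a covariate. Each was called in the same direction as *Adcy1*, although one receptor lowers and the other raises cyclase activity. *Cnr1*, the cannabinoid receptor gene, was not called at a log2 fold change of -0.31 (edgeR adjusted p = 0.0650). Other Gαi-coupled receptor genes lay on the other side of 0. *Chrm2*, a muscarinic acetylcholine receptor gene, was at 0.16 (edgeR adjusted p = 0.408), and *Grm8*, a glutamate receptor gene named after its values were seen, was at 0.22 (edgeR adjusted p = 0.460). Neither was called. For each the 3 cKO libraries lay above the 3 control libraries in CPM, as they did for 5.61% of all loci tested.

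Among the G protein subunits none was called, where 0.503% of all loci tested were called lower and 0.0275% higher. *Gnas*, the gene for Gαs, had 15477 to 17777 fragments in control and 16377 to 17732 in cKO, with a log2 fold change of 0.07 (edgeR adjusted p = 0.797). *Gnai3*, for an inhibitory subunit, was at -0.12 and *Gng13*, for a γ subunit, at -0.40 (edgeR adjusted p = 0.300), while *Gng2*, for another γ subunit, was at 0.11 (edgeR adjusted p = 0.654). *Calm2*, a gene for calmodulin, which activates the *Adcy1* and *Adcy8* proteins, had a log2 fold change of -0.04 and was not called (edgeR adjusted p = 0.933). *Pcp4*, whose product binds calmodulin and is abundant in Purkinje cells, was at -0.26 (edgeR adjusted p = 0.0932).

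Downstream of cyclic AMP, 0 of 9 protein kinase A genes, 0 of 10 anchoring protein genes, 0 of 8 tested genes of other effectors and 0 of 8 genes of the CREB family and its coactivators were called. With 0.503% of all loci called lower and 0.0275% higher, lists this short would hold few calls or none. At an unadjusted p under 0.05 by edgeR, 3 of the 8 CREB family and coactivator genes were lower and 0 higher. Of the protein kinase A genes, 1 was lower and 0 were higher, and the other lists here had 0. Of all 21854 loci tested, 1516 were under that threshold in either direction. The kinase's catalytic subunit genes *Prkaca* and *Prkacb* were at 0.06 and 0.05 on the log2 scale, while *Pkib*, an inhibitor of the kinase, was at -0.49 (edgeR adjusted p = 0.0782). *Creb1*, the transcription factor that the kinase phosphorylates, was at -0.14 (edgeR adjusted p = 0.649). The channel genes *Hcn2* and *Hcn4*, whose products cyclic AMP binds directly, were at 0.08 and 0.16.

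Phosphodiesterases, which degrade cyclic AMP, held 0 called genes of 16 tested. The lowest adjusted p was that of *Pde1c*, a calcium and calmodulin-dependent enzyme, with 556, 544 and 562 fragments in control and 467, 436 and 394 in cKO. Its groups did not overlap, an arrangement found downward for 6.54% of all loci tested. The log2 fold change of *Pde1c*, -0.35, missed the threshold (edgeR adjusted p = 0.0521). *Pde10a* was at -0.32 (edgeR adjusted p = 0.0684) and *Pde1a* at 0.21 (edgeR adjusted p = 0.644). Of the 8 soluble and guanylyl cyclase genes tested, 0 were called, and the scarce *Gucy2e* and *Gucy2f* were at -0.42 and 0.48 with 24 to 43 and 17 to 41 fragments per library. The soluble adenylyl cyclase gene *Adcy10* did not pass the filter on low counts.

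**Figure D5:**
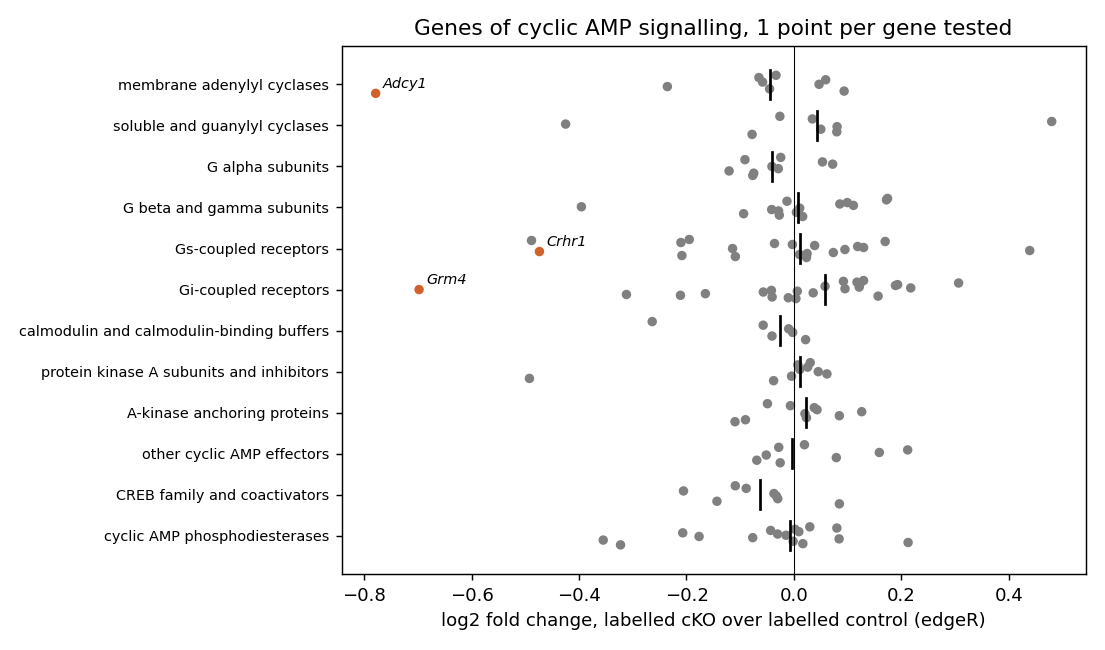
Log2 fold change of each tested gene of the cyclic AMP pathway, libraries labelled cKO over libraries labelled control, by list, with a black bar at each list's median and orange for genes called by edgeR at an adjusted p under 0.05. *Adcy1*, *Grm4* and *Crhr1* are the 3 coloured points, at -0.78, -0.70 and -0.47.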

How the data were processed

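RNA was sequenced from 6 pools of mouse brainstem, 3 per genotype. Per the labels and the paper's methods, rRNA-depleted stranded libraries were made, and the submitters' processing notes name CASAVA 1.6, TopHat2 2.0.9, Cufflinks 2.2.0, Cuffdiff and mm10. The authors deposited, per locus and library, whole fragment counts and FPKM scaled between libraries by Cuffdiff. The strand setting used in counting is not given in the sources used here, and 2 columns of scaled fragments were not used.

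Counts were normalized by TMM, filtered with filterByExpr and tested with edgeR 4.0.16 (quasi-likelihood, Benjamini-Hochberg over 21854 loci, called at an adjusted p under 0.05) in R 4.3.3. CPM use TMM library sizes, and log2 CPM a prior count of 2. Cuffdiff's own test could not be run. Alternatives used DESeq2 1.42.0, limma 3.58.1 on log2(FPKM + 1) or log2(FPKM + 0.1), other scalings and filters, each library left out, a replicate block and the granule marker covariate. The edgeR, DESeq2 and limma fits were tested on simulated counts. For limma these were scaled by library size, so limma on FPKM, as reported here, was not tested in this way. Exact tests went through all arrangements in Python 3.11.15 with numpy 2.4.6, and scipy 1.17.1 gave their Benjamini-Hochberg adjustment where an adjusted value is stated.

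Members and lists were chosen with earlier results of these data known. Named are *Hoxa5*, the members, called genes and the 3 smallest p of each list (*Adora2b*, *Drd1*, *Gng7*, *Ric8a*, *Crtc2*, *Ep300*, *Akap5*, *Akap10*, *Akap12* and *Gucy1a2*, also taken by this rule, were not called), and the 5 loci most like *Adcy1*. Some genes that the rule takes in are not reported here. *Adcy10* and *Grm8* were named after its values were seen. The table's replicate numbers serve as names within a genotype. Promoter windows are RefSeq's (GRCm38.p6).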

Additional observations from a re-analysis of the deposited data

How the results depend on the processing

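*Adcy1* stayed lower and called with other scalings and count filters, with DESeq2 (log2 fold change -0.78, adjusted p = 0.0300) and with each library left out (log2 fold change -0.88 to -0.56). On FPKM with limma it lost the call, at -0.73 with a pseudocount of 1 (adjusted p = 0.422), -0.75 with 0.1 (0.444) and -0.73 without a filter (0.614), where limma called 0, 1 and 0 loci in all (0, 1 and 0 lower, and 1298, 1271 and 1873 at an unadjusted p under 0.05) and 0 members. With granule markers as a covariate it turned to 0.37, with 1 locus called in all (1 lower) and 0 members. The cause was not tested. The count of called loci, 116 (110 lower), was 221 (194 lower) without a filter, 76 with at least 50 fragments in 3 libraries, and 44 to 126 (42 to 126 lower) with a library left out, the fewest without control replicate 1 (44) and then without cKO replicate 3 (65). Pathway genes called lower numbered 0 to 3 with a library left out, and 0 without control replicate 1. The share of *Adcy1* differed by -10.5 to -6.28 percentage points with a library left out. With the replicate number as a block, 130 loci were called (122 lower) and *Adcy1* was at -0.75 (adjusted p = 3.51e-04). Same-numbered libraries did not deviate together (correlations 0.03, -0.08 and 0.05), so the numbers were not taken as pairs, and the replicate block changed no call of a member. Of 133 alternative values of the other 8 members, 0 were called (log2 fold change -0.34 to 0.15, lowest adjusted p = 0.656) and 4 had the opposite sign. Depth limits *Adcy4* most, which the filters on FPKM and on 50 fragments removed.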
